A study of Homo sapiens with 6 samples.

Results

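Respiratory complex I genes were defined as the protein-coding genes of GENCODE 29 whose symbol starts with NDUFA, NDUFB, NDUFC, NDUFS or NDUFV followed by a digit, or with MT-ND. The rule returned 46 of 34913 genes with transcripts in the deposited tables, of which 39 are nuclear and 7 lie on the mitochondrial chromosome. All 46 passed the filter on low counts and were tested. The series compares THP-1, an established human acute monocytic leukaemia line, as supplied by 2 biorepositories. The tables hold 3 RNA-seq libraries of DSMZ cells and 3 of ATCC cells, neither of which received any treatment. Both stocks were grown in parallel at 37 °C and 5% CO2 in RPMI with 20% fetal bovine serum for 48 h, and after a 1:2 split for another 24 h. Replicates were separate expansions of the same stock. Bank and stock therefore cannot be told apart, and p-values rest on the spread between expansions.

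Complex I is the entry point of the respiratory chain in the inner mitochondrial membrane. Its matrix arm takes electrons from NADH in the N module and hands them over iron-sulfur clusters to ubiquinone in the Q module, and its membrane arm pumps protons across the inner membrane. Core subunits, which are shared with bacteria, carry out catalysis, and accessory subunits surround and stabilise them. The mitochondrial genome encodes the hydrophobic core of the membrane arm, while the nucleus encodes the matrix arm and all accessory subunits, so that the complex is assembled from transcripts made in separate compartments.

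Libraries held 23413428 to 37119721 estimated counts, of which complex I genes took 2.07 to 2.36%. ATCC replicate 2 stood apart from its fellow replicates, with a chi-square per degree of freedom of 103 and 61.2 against ATCC replicates 1 and 3, where these differed from each other by 12.7 and DSMZ replicates by 4.6 to 9.91. A list of 13 genes for monocytic cells included KMT2A and MLLT3, which are not specific to such cells. All 13 passed the filter on low counts, with 4 higher in DSMZ, MLLT3 among them, and 4 lower. On leaving out 1 library the counts were 2 to 5 each way. Of all tested genes 24.1% were higher in DSMZ and 25.7% lower. The 13 genes summed to 1096 to 1265 TPM in DSMZ libraries and 1172 to 1395 TPM in ATCC libraries. LYZ, which encodes lysozyme, averaged 346 ± 52.7 TPM in DSMZ and 286 ± 95.2 TPM in ATCC cells (SD, n = 3 each). CD14, the lipopolysaccharide co-receptor of mature monocytes, was scarce in both, at 0.278 ± 0.0439 TPM in DSMZ and 1.41 ± 0.476 TPM in ATCC cells (SD, n = 3 each). Markers of B cells added up to 17.1 to 23.9 TPM in DSMZ and 3.46 to 6.72 TPM in ATCC libraries, with MS4A1 at 0 counts in all libraries. The DSMZ sum was mostly CD79B, at 13.7 ± 4.39 TPM in DSMZ and 2.1 ± 1.58 TPM in ATCC cells (SD, n = 3 each). Those of T and NK cells summed to 6.53 to 6.86 TPM in DSMZ and 13.9 to 17.7 TPM in ATCC libraries, with CD3E at 0 counts. This sum was mostly NKG7, at 5.41 ± 0.308 TPM in DSMZ and 14.7 ± 2.23 TPM in ATCC cells (SD, n = 3 each). CD5 was also lower in DSMZ, whereas CD8A was higher. Erythroid and megakaryocyte markers came to 2.07 to 4.23 TPM in DSMZ and 1.92 to 3.27 TPM in ATCC libraries, with PF4 and PPBP at 0 counts. Epithelial and fibroblast markers, mostly KRT8, came to 5.38 to 8.27 TPM in DSMZ and 3.85 to 5.83 TPM in ATCC libraries. Sums that rest on so few genes do not measure the content of a cell type. In bulk RNA, fewer cells of a kind and less RNA per cell cannot be told apart.

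The question put to these genes was whether the subunits of the complex differ between the stocks, and whether nuclear and mitochondrial subunits differ alike. Complex I genes moved in both directions. Of the 39 nuclear genes, 6 were higher in DSMZ cells, 14 were lower and 19 did not pass an adjusted p of 0.05 in the edgeR quasi-likelihood test over all 14577 tested genes. The called share was 51.3%, beside 49.8% of all tested genes, so a call was about as frequent among nuclear complex I genes as elsewhere. Calls higher in DSMZ made up 24.1% of all tested genes and calls lower in DSMZ 25.7%. The TPM values of the stocks, which are levels per transcript length, did not overlap for 26 nuclear genes, 7 with DSMZ above and 19 with DSMZ below. Over all tested genes 57.2% did not overlap, 27.3% with DSMZ above and 29.8% with DSMZ below. Fold changes are given on the log2 scale as DSMZ minus ATCC. They ran from -1.02 for NDUFA8 to 1.20 for NDUFA9, with a median of -0.15 over the 39 nuclear genes and 0.01 over all genes. Their median size regardless of direction was 0.33, beside 0.47 over all genes. The count of lower genes was 9, 6 and 6 without DSMZ replicates 1, 2 and 3, and 7 without ATCC replicate 3. The count of higher genes was 3 without ATCC replicate 3 and 10 without ATCC replicate 2. Of the 7 mitochondrial genes, MT-ND6 alone passed the threshold, and it was higher in DSMZ.

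Each structural module held nuclear genes that were higher and nuclear genes that were lower in DSMZ. In the N module 1 of 8 genes was higher and 3 were lower, and in the Q module likewise 1 of 8 was higher and 3 were lower. Among the 9 nuclear genes of the proximal membrane arm 1 was higher and 3 were lower, and among the 11 of the distal arm 3 were higher and 4 were lower. Of the 7 nuclear core subunits 1 was higher and 3 were lower, and of the 29 nuclear accessory subunits 5 were higher and 10 were lower. Beside these counts, 24.1% of all tested genes were higher in DSMZ and 25.7% lower. Below, levels are in TPM, which divides counts by transcript length and library total, and library values follow the order of replicates 1, 2 and 3.

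NDUFS1, the largest core subunit of the N module and the carrier of several of its iron-sulfur clusters (chr2:206114817-206159603, minus strand, GRCh38), was higher in DSMZ cells. Its levels were 136, 144 and 142 TPM in DSMZ libraries and 82.6, 72.7 and 88.2 TPM in ATCC libraries. The groups did not overlap, and the log2 fold change was 0.95 (SE 0.10, adjusted p = 0.000254). Of its 20 listed transcripts 10 are copies on alternative sequences of the assembly and held 50% of its TPM, and on the primary assembly alone the fold change was 0.94. NDUFV1, the core subunit that binds NADH and the flavin, moved the other way, with 108, 106 and 97.5 TPM in DSMZ libraries against 114, 150 and 129 TPM in ATCC libraries. Its fold change was -0.39 (SE 0.12, adjusted p = 0.0331). That call was lost without any 1 of the DSMZ libraries or without ATCC replicate 3, with an adjusted p of up to 0.131, and with no filter on low counts or in limma (adjusted p = 0.0514 to 0.053). NDUFV2, the core partner of NDUFV1 that also holds an iron-sulfur cluster, had 179, 193 and 190 TPM in DSMZ and 199, 218 and 201 TPM in ATCC libraries. Its values did not overlap between the stocks, yet its fold change of -0.12 (SE 0.10) did not pass the threshold (adjusted p = 0.354).

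Among the accessory subunits of the N module, NDUFV3, a small protein at the tip of the matrix arm that exists in isoforms made by splicing (chr21:42879644-42913304, plus strand), was lower in DSMZ. It was measured at 23.8, 24.9 and 21.6 TPM in DSMZ libraries and at 42.7, 42.7 and 40.4 TPM in ATCC libraries. All DSMZ values lay far below all ATCC values, with a fold change of -0.80 (SE 0.09, adjusted p = 0.000347). NDUFA12, which takes the place of the assembly factor NDUFAF2 in the finished complex, fell by 0.44 (adjusted p = 0.00986), a call lost without DSMZ replicate 2, DSMZ replicate 3 or ATCC replicate 3 (adjusted p up to 0.056) and with protein-coding transcripts only, at -0.31 (adjusted p = 0.211). NDUFS4, needed for a firm hold of the N module on the rest, NDUFS6, which binds zinc, and NDUFA2, which has a thioredoxin-like fold, had fold changes of -0.13, -0.15 and 0.05 and did not pass the threshold.

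The widest nuclear difference in the direction of DSMZ was in the Q module. NDUFA9, an accessory subunit that binds a nicotinamide nucleotide where the matrix arm meets the membrane (chr12:4649095-4694317, plus strand), had 212, 220 and 210 TPM in DSMZ and 94.6, 107 and 88.9 TPM in ATCC libraries. The groups stood well apart, with a fold change of 1.20 (SE 0.11, adjusted p = 0.000127), or 2.3-fold. Core subunits of the module did not share that direction. NDUFS7, which carries the iron-sulfur cluster that reduces ubiquinone (chr19:1383527-1395589, plus strand), had 43.3, 43.3 and 42.2 TPM in DSMZ and 58.5, 72 and 58.4 TPM in ATCC libraries. NDUFS8, a ferredoxin-like core subunit (chr11:68030617-68036644, plus strand), had 82.5, 86.7 and 76.3 TPM in DSMZ and 101, 134 and 116 TPM in ATCC libraries. Neither gene's values overlapped between the stocks, and both were lower in DSMZ, by -0.52 (SE 0.14, adjusted p = 0.0185) for NDUFS7 and -0.49 (SE 0.13, adjusted p = 0.0162) for NDUFS8. With protein-coding transcripts only, the fold change of NDUFS7 was -0.04 (adjusted p = 0.893) and that of NDUFS8 was -0.41 (adjusted p = 0.0688), so neither call held there. The NDUFS7 call was also lost without any 1 of the DSMZ libraries (adjusted p up to 0.0797), and the NDUFS8 call without these or without ATCC replicate 3 (adjusted p up to 0.0751).

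NDUFS3, a core subunit of the Q module that carries no iron-sulfur cluster, had 178, 153 and 157 TPM in DSMZ and 171, 241 and 199 TPM in ATCC libraries. The stocks overlapped, and its fold change of -0.22 (SE 0.13) did not pass the threshold (adjusted p = 0.184). It passed without ATCC replicate 1, at -0.36 (adjusted p = 0.0363), and with the GC correction, at -0.19 (adjusted p = 0.0396), and was 0.09 with protein-coding transcripts only. NDUFA6, an accessory subunit that holds an acyl carrier protein, was lower in DSMZ, at 170 ± 1.96 TPM against 212 ± 4.9 TPM in ATCC cells (SD, n = 3 each), with a fold change of -0.30 (adjusted p = 0.0305). Its call was lost without any 1 DSMZ library or ATCC replicate 3 (adjusted p up to 0.148) and with alternative sequences left out, which hold 11 of its 14 transcripts. It was lost as well with protein-coding transcripts only and with no filter on low counts (adjusted p = 0.18 and 0.0922). Of the remaining accessory subunits of the module, NDUFA7 had a fold change of -0.35 and NDUFA5 of 0.20, and neither passed. NDUFA7 passed without ATCC replicate 1, at -0.52 (adjusted p = 0.0186), with the GC correction, at -0.30 (adjusted p = 0.0179), and in limma, at -0.37 (adjusted p up to 0.0419). NDUFA5 had 82.2 TPM in ATCC replicate 2, beside 158 and 148 TPM in the other ATCC libraries and 163, 149 and 151 TPM in DSMZ libraries, and its fold change without that library was -0.03.

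In the proximal membrane arm the lowest value of all members was that of NDUFA8, an accessory subunit stabilised by disulfide bonds on the intermembrane face (chr9:122144058-122159819, minus strand). Its levels were 41.5, 44 and 40.9 TPM in DSMZ libraries and 87, 93.2 and 80.7 TPM in ATCC libraries. The ATCC level was 2.03-fold the DSMZ level in the fit, a log2 fold change of -1.02 (SE 0.11, adjusted p = 0.000235) with no overlap. NDUFA1, a short X-linked membrane subunit that the early steps of assembly need (chrX:119871487-119876662, plus strand), had 94, 93.2 and 102 TPM in DSMZ and 163, 191 and 163 TPM in ATCC libraries. It too was lower in DSMZ without overlap, by -0.81 (SE 0.12, adjusted p = 0.00129). NDUFC2, a membrane subunit at the bend of the complex, averaged 224 ± 3.83 TPM in DSMZ and 339 ± 24 TPM in ATCC cells (SD, n = 3 each) and fell by 0.56 (adjusted p = 0.00491).

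NDUFA10, which resembles nucleoside kinases and sits on the matrix side (chr2:239892450-240025402, minus strand), was the nuclear gene of the proximal arm that was higher in DSMZ. It had 38, 36.4 and 37.6 TPM in DSMZ libraries and 26.4, 30.4 and 27.1 TPM in ATCC libraries, which did not overlap. Its fold change was 0.46 (SE 0.10, adjusted p = 0.00599), and without ATCC replicate 3 it was 0.43 (adjusted p = 0.0504). NDUFS5, NDUFA13 (also known as GRIM-19), NDUFA3, NDUFA11 and NDUFC1 had fold changes of 0.19, 0.15, 0.30, -0.26 and -0.15 and did not pass. NDUFS5, NDUFA13 and NDUFA3 passed without ATCC replicate 2, with adjusted p of 0.0167, 0.0077 and 0.000396, and with the GC correction, at 0.22, 0.29 and 0.44. With protein-coding transcripts only NDUFC1 was lower in DSMZ, at -0.54 (adjusted p = 0.026), and NDUFA3 stood at 0.03. NDUFA11 passed in limma, at -0.32 (adjusted p up to 0.0238). Of the 26 transcripts of NDUFA3, 12 are copies on alternative sequences.

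In the distal membrane arm NDUFB8, an accessory subunit that crosses the membrane beside the pump subunits (chr10:100523740-100530000, minus strand), was higher in DSMZ. Its levels were 167, 176 and 177 TPM in DSMZ and 82.7, 108 and 98.2 TPM in ATCC libraries. These did not overlap, with a fold change of 0.92 (SE 0.13, adjusted p = 0.000877). NDUFB5 (chr3:179604690-179627647, plus strand), which also spans the membrane, had 235, 228 and 223 TPM in DSMZ and 193, 182 and 203 TPM in ATCC libraries. All 3 DSMZ values were above all ATCC values, by 0.33 (SE 0.09, adjusted p = 0.0144). NDUFB3 (chr2:201071433-201085750, plus strand), another small subunit of the arm, had 246, 275 and 218 TPM in DSMZ and 229, 214 and 212 TPM in ATCC libraries. It overlapped on the TPM scale and passed narrowly on counts, at 0.30 (SE 0.10, adjusted p = 0.0312). Both smaller calls were lost without any 1 of the DSMZ libraries, ATCC replicate 1 or ATCC replicate 3, with an adjusted p of up to 0.0951 for NDUFB5 and 0.155 for NDUFB3. After correction for GC content the fold change of NDUFB5 was 0.02, and with upper quartile scaling it was 0.25 (adjusted p = 0.0772). NDUFB3 lost its call with upper quartile scaling, in DESeq2, in limma and with no filter on low counts (adjusted p = 0.0587 to 0.199).

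NDUFB11, an X-linked subunit whose loss in people affects heart and blood cells (chrX:47142216-47145504, minus strand), was lower in DSMZ. It had 50.3, 57.3 and 52 TPM in DSMZ and 77.4, 105 and 93 TPM in ATCC libraries. The stocks did not overlap and differed by -0.78 (SE 0.15, adjusted p = 0.004). NDUFB9, which like NDUFA6 holds an acyl carrier protein (chr8:124539101-124580648, plus strand), had 219, 220 and 232 TPM in DSMZ and 300, 382 and 358 TPM in ATCC libraries. Its values did not overlap either, and its fold change was -0.61 (SE 0.13, adjusted p = 0.00627). NDUFB6 and NDUFB10 were lower by -0.41 (adjusted p = 0.0181) and -0.40 (adjusted p = 0.043). The NDUFB6 call was lost without DSMZ replicate 2, DSMZ replicate 3 or ATCC replicate 3 (adjusted p up to 0.0992), and that of NDUFB10 without any 1 DSMZ library or ATCC replicate 3 (adjusted p up to 0.159), with protein-coding transcripts only or with no filter on low counts (adjusted p = 0.0642 and 0.0601). NDUFB1, NDUFB2, NDUFB4 and NDUFB7 lay between -0.24 and 0.26 and did not pass, though NDUFB2 did so without ATCC replicate 2, at 0.39 (adjusted p = 0.00256), and with the GC correction, at 0.29 (adjusted p = 0.0203). NDUFB1 passed with the GC correction, at -0.22 (adjusted p = 0.0428), and in limma, at -0.35 (adjusted p up to 0.00718).

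**Figure D1:**
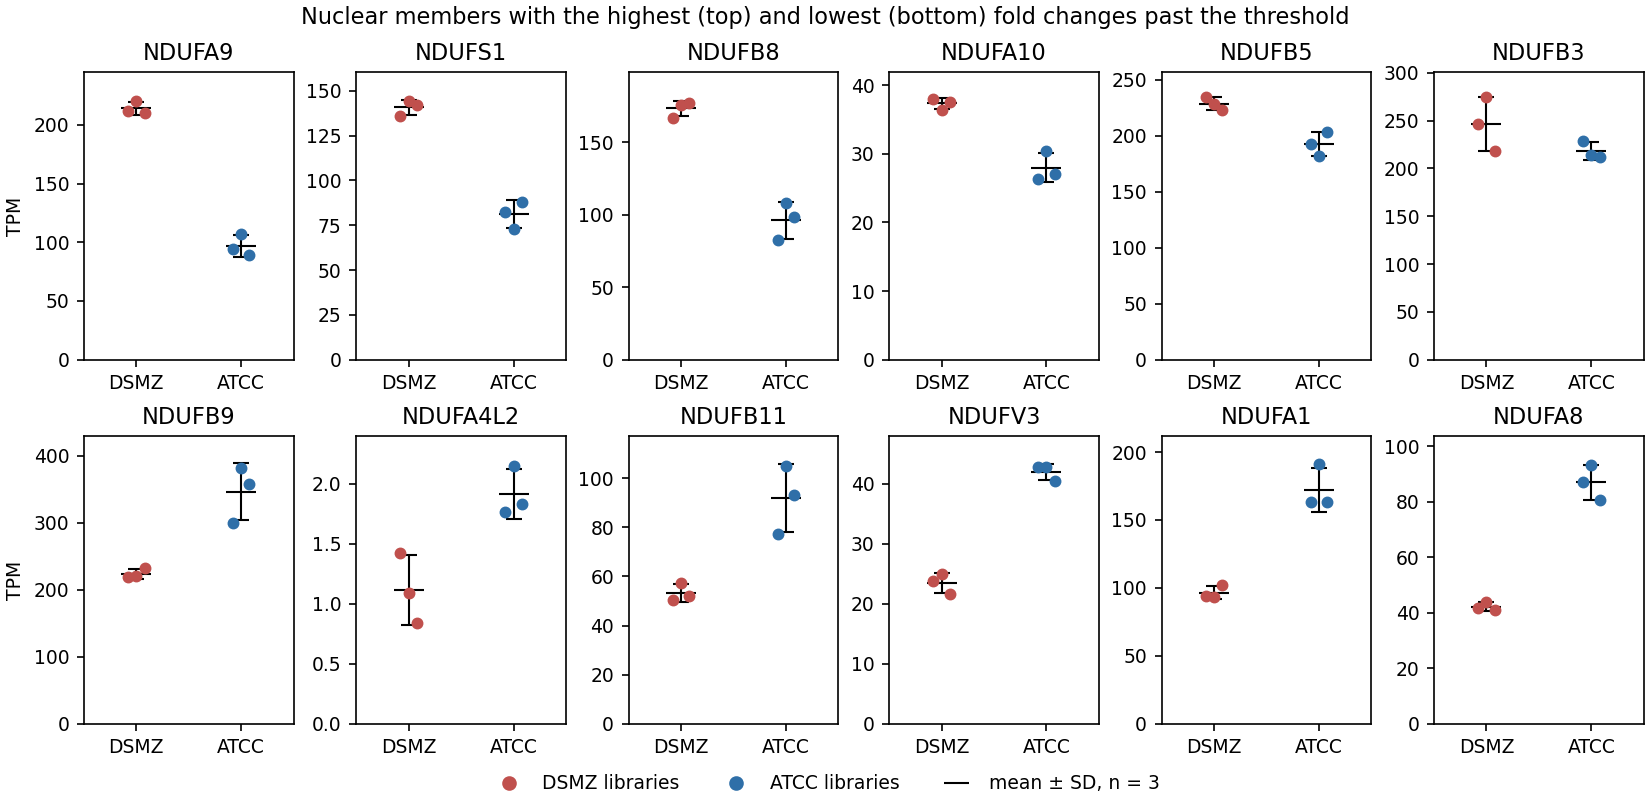
TPM per library of the 6 called nuclear genes with the highest fold changes (top row) and the 6 with the lowest (bottom row), DSMZ libraries left and ATCC libraries right, with mean ± SD (n = 3); each panel has its own axis from 0. NDUFB3 is the panel in which the stocks overlap, and NDUFA4L2 lies at 2.15 TPM or below throughout.

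A further 3 genes fall under the naming rule without being structural subunits. NDUFA4, first assigned to complex I and now known as a subunit of cytochrome c oxidase, was the most abundant nuclear gene of the set. That ranking sums all listed transcripts, and those of NDUFA4 were mostly retained-intron forms. Its levels were 479, 470 and 495 TPM in DSMZ and 452, 503 and 498 TPM in ATCC libraries. These overlapped, and the fold change of 0.03 (SE 0.10) did not pass (adjusted p = 0.819). NDUFA4L2, its hypoxia-induced paralog, had 1.42, 1.09 and 0.837 TPM in DSMZ and 1.76, 2.15 and 1.83 TPM in ATCC libraries. It was lower in DSMZ at this low level, by -0.76 (SE 0.25, adjusted p = 0.0386), a call lost without any 1 of DSMZ replicates 2 and 3 and ATCC replicates 2 and 3 (adjusted p up to 0.144). With protein-coding transcripts only its fold change was -0.46 (adjusted p = 0.262), and the call was also lost in DESeq2 (adjusted p = 0.114). NDUFC2-KCTD14, a readthrough transcript that shares exons with NDUFC2, ranged from 0.0598 to 2.62 TPM over the libraries and did not pass (1.05, SE 0.62, adjusted p = 0.195). Reads from shared exons cannot be told apart between it and NDUFC2.

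Mitochondrial subunits other than MT-ND6 were all more abundant than any nuclear one in both stocks, and MT-ND6 was the 1 of the 7 that passed the threshold. Encoded on the light strand, MT-ND6 forms the membrane helix next to the ubiquinone channel that moves during catalysis (chrM:14149-14673, minus strand), and its transcript is known to lack the poly(A) tail of the other mitochondrial mRNAs. It had 569, 558 and 621 TPM in DSMZ and 220, 227 and 259 TPM in ATCC libraries. Every DSMZ library was above every ATCC library, with a fold change of 1.34 (SE 0.11, adjusted p = 9.58e-05), or 2.53-fold. No source used here says whether counting took account of the strand, so that sense MT-ND6 transcripts and the antisense reads of the opposite strand cannot be told apart.

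MT-ND1, which lines the ubiquinone channel (chrM:3307-4262), had 8099, 6637 and 7914 TPM in DSMZ and 6988, 5695 and 6688 TPM in ATCC libraries. MT-ND3, whose matrix loop lies at the ubiquinone site (chrM:10059-10404), had 3629, 3404 and 3503 TPM in DSMZ and 3228, 2489 and 3233 TPM in ATCC libraries. Only the values of MT-ND3 were without overlap, and the fold changes of 0.26 (SE 0.11, adjusted p = 0.0842) for MT-ND1 and 0.27 (SE 0.11, adjusted p = 0.0738) for MT-ND3 did not pass. MT-ND1 passed without DSMZ replicate 2, at 0.35 (adjusted p = 0.0335), and with a GC correction, at 0.28 (adjusted p = 0.0326). MT-ND3 passed without ATCC replicate 2, at 0.18 (adjusted p = 0.0233), and stood at 0.06 with the GC correction.

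MT-ND2, MT-ND4 and MT-ND5 are the antiporter-like subunits, each with a proton channel. MT-ND2 (chrM:4470-5511) had 4212, 3648 and 4152 TPM in DSMZ and 3747, 3275 and 3798 TPM in ATCC libraries. MT-ND4 (chrM:10760-12137) had 8599, 8027 and 8650 TPM in DSMZ and 9668, 7790 and 9939 TPM in ATCC libraries, and MT-ND5 (chrM:12337-14148) had 3473, 3062 and 3352 TPM in DSMZ and 3584, 2951 and 3535 TPM in ATCC libraries. All 3 overlapped between the stocks and none passed the threshold, with fold changes of 0.18 (SE 0.09, adjusted p = 0.145), -0.08 (SE 0.10, adjusted p = 0.502) and 0.01 (SE 0.09, adjusted p = 0.967) in that order. MT-ND4L, a small subunit between the ubiquinone channel and the pumps (chrM:10470-10766), had 6707, 6343 and 6696 TPM in DSMZ and 8870, 6343 and 7827 TPM in ATCC libraries. ATCC replicate 2 was at the DSMZ level and the other 2 ATCC libraries were above it, and the fold change of -0.19 (SE 0.11, adjusted p = 0.204) did not pass. Without ATCC replicate 2 it was -0.28 (adjusted p = 0.00466), and with the GC correction -0.25 (adjusted p = 0.00586).

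**Figure D2:**
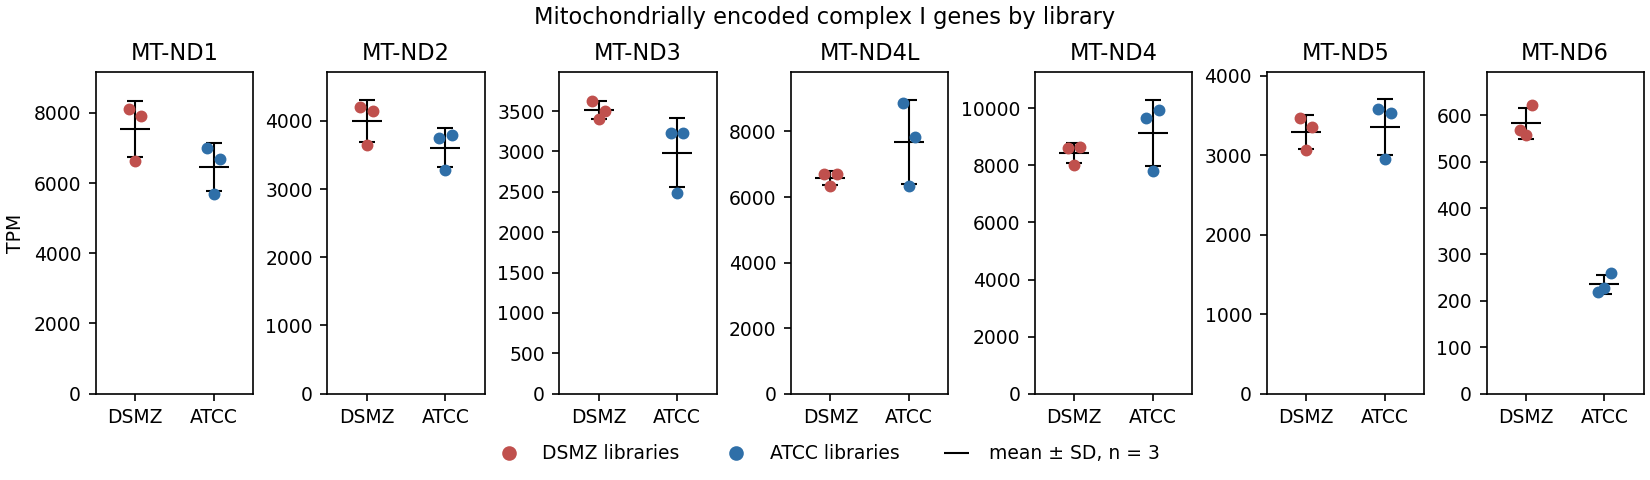
TPM per library of the 7 mitochondrially encoded complex I genes, DSMZ libraries left and ATCC libraries right, with mean ± SD (n = 3) and a separate axis from 0 for each gene. MT-ND6 is set apart, at 558 to 621 TPM in DSMZ and 220 to 259 TPM in ATCC libraries.

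The MT-ND genes share sequence with each other and with nuclear copies, which limits how reads can be assigned to them. MT-ND4L and MT-ND4 are adjacent on 1 transcript and overlap by 7 bases, shown in capitals (GENCODE 29 transcripts, GRCh38, plus strand, chrM:10737-10766 and chrM:10760-10789):
MT-ND4L end: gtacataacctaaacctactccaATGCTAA
MT-ND4 start: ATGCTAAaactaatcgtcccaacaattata
MT-ND2 has a nuclear copy, the pseudogene MTND2P28 on chromosome 1, which matches it over 1042 aligned bases with 17 differences (98.4% identity). The 60 bases with the most differences between them (chrM:4899-4958 and chr1:630069-630128, plus strand) differ at the 4 bases in capitals, which are what separates reads of one from the other in this window:
MT-ND2: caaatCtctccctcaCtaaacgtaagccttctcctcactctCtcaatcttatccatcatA
MTND2P28: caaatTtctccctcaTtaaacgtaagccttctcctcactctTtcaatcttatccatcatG
MTND2P28 was given 28.4 to 29% of the counts of the pair in DSMZ libraries and 27.8 to 28.5% in ATCC libraries. Adding its counts moved the log2 ratio of mean CPM of MT-ND2 to 0.14, where it was 0.13 alone. The shorter copy of MT-ND1, MTND1P23, took 1.94 to 2.26% of the counts of its pair in DSMZ and 1.51 to 2.18% in ATCC libraries.

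Summed over genes, mitochondrial complex I transcripts outweighed nuclear ones in every library. The 36 nuclear structural subunits added up to 5140, 5272 and 5115 TPM in DSMZ and 5283, 6001 and 5612 TPM in ATCC libraries. All DSMZ sums were below all ATCC sums, on average by 8.1%, a log2 ratio of -0.12. The 7 MT-ND genes came to 35288, 31679 and 34888 TPM in DSMZ and 36304, 28770 and 35279 TPM in ATCC libraries, which overlapped. The ratio of the mitochondrial to the nuclear sum was 6.56 ± 0.482 in DSMZ and 5.98 ± 1.07 in ATCC cells (SD, n = 3 each). It ranged from 6.01 to 6.87 in DSMZ and from 4.79 to 6.87 in ATCC libraries, so the stocks overlapped, and the lowest ratio was in ATCC replicate 2. MT-ND6 made up 1.72 ± 0.0927% of the MT-ND sum in DSMZ and 0.709 ± 0.0941% in ATCC cells (SD, n = 3 each), without overlap. These sums carry no test, since they are scores over chosen genes.

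The remaining mitochondrial mRNAs, which encode subunits of other complexes, summed to 49558, 46141 and 50000 TPM in DSMZ and 39938, 32452 and 39925 TPM in ATCC libraries, 29.7% more in DSMZ and without overlap. Of the 5 tested, 3 were higher in DSMZ and 0 lower, beside 24.1% higher and 25.7% lower of all tested genes, with a median fold change of 0.61. MT-CO3, a subunit of cytochrome c oxidase, rose by 0.79 (adjusted p = 0.00103), MT-ATP6 of the ATP synthase by 0.64 (adjusted p = 0.00235) and MT-CYB, the cytochrome b of complex III, by 0.61 (adjusted p = 0.00179). MT-CO1 and MT-CO2 did not pass, at 0.16 (adjusted p = 0.179) and 0.05 (adjusted p = 0.67). These 2 averaged 11319 and 10345 TPM in DSMZ and 10339 and 10234 TPM in ATCC cells. Nuclear copies of these mRNAs were not examined. Whether the remaining mitochondrial mRNAs differ from the MT-ND genes was not tested. MT-ATP8, whose reading frame overlaps MT-ATP6, is listed at 0 in all libraries.

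**Figure D3:**
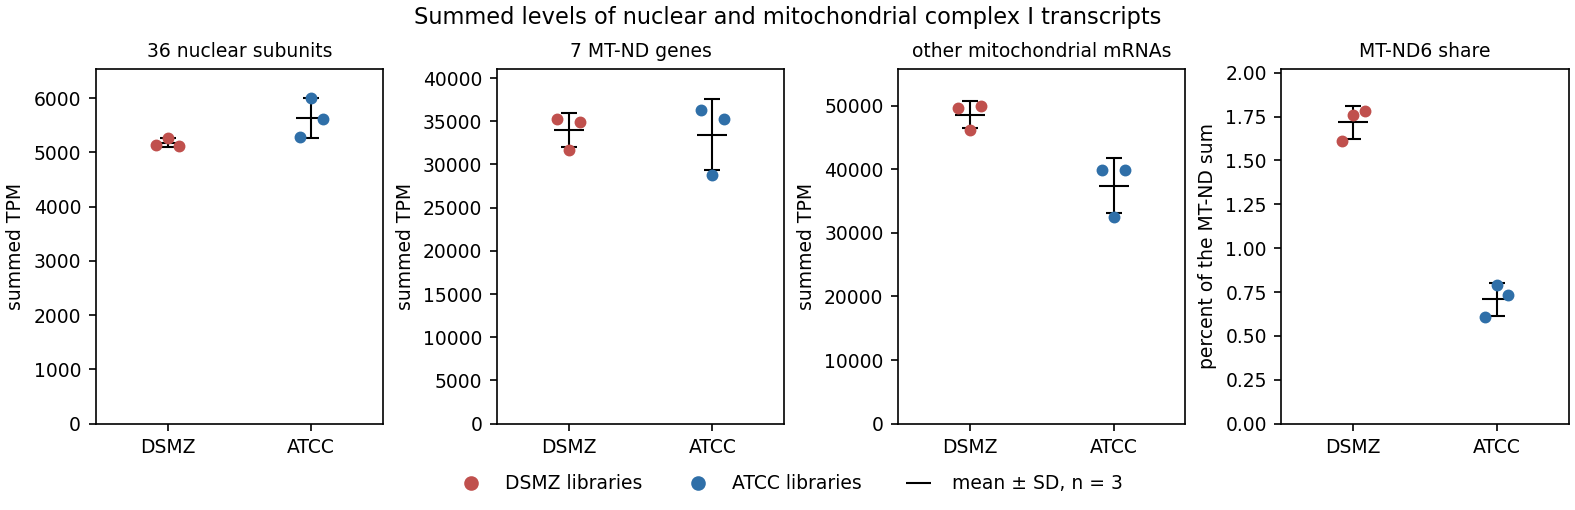
Summed TPM per library of the 36 nuclear subunits, the 7 MT-ND genes and the other mitochondrial mRNAs, and the share of MT-ND6 in the MT-ND sum (percent), DSMZ left and ATCC right, with mean ± SD (n = 3). The MT-ND sums overlap between the stocks, whereas the other mitochondrial mRNAs (46141 to 50000 TPM in DSMZ, 32452 to 39938 TPM in ATCC) and the MT-ND6 share do not.

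Levels among the subunits, which meet in equal numbers in the complex, spread widely in both stocks. These levels sum all listed transcripts of a gene, coding or not. Mean levels of the 36 nuclear subunits ran from 23.5 TPM for NDUFV3 to 324 TPM for NDUFS5 in DSMZ, with a median of 147 TPM, and from 27.9 TPM for NDUFA10 to 347 TPM for NDUFB9 in ATCC, with a median of 157 TPM. The coefficient of variation over these genes was 54% in DSMZ and 55% in ATCC. Mitochondrial means ran from 583 TPM for MT-ND6 to 8425 TPM for MT-ND4 in DSMZ and from 235 to 9133 TPM for the same genes in ATCC.

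Called nuclear complex I genes mostly had the direction of their chromosomal neighbours. For each gene the median fold change of the other tested genes in a 10 Mb window around it was computed, over 20 to 256 genes. Of the 20 called nuclear genes, 19 had the sign of their window: 6 of 6 higher genes lay in windows with a median above 0 and 13 of 14 lower genes in windows with a median below 0. The exception was NDUFA4L2, at -0.76 in a window at 0.41. The same share was not computed over all called genes, so these counts do not set complex I genes apart from others. Of the 19 nuclear genes that were not called, 6 had the sign of their window, which makes 25 of 39 in all. Across the 39 nuclear genes the fold change correlated with the window median (Pearson r = 0.61, Spearman rho = 0.54), as a description only, since genes are not independent and those near each other share a window. With the median of the whole chromosome r was 0.52. Subtracting the window median brought the standard deviation of the fold changes to 0.42, beside 0.53 before, and 26 of the 39 genes lay within 0.3 of their window. DNA copy number was not measured in these files, and its part in these values was not tested.

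NDUFA9 lay at 1.20 in a window at 1.07 on the short arm of chromosome 12, while chromosome 12 as a whole had a median of 0.20 and carries NDUFA12 at -0.44 in a window at -0.10. NDUFB8, at 0.92, is on chromosome 10, where 76% of the other tested genes were higher in DSMZ and the median was 1.03. NDUFA1 and NDUFB11 sit far apart on chromosome X, whose other genes had a median of -0.82 and were lower in 68.8% of cases. NDUFB9, at -0.61, is on chromosome 8, with a median of -0.86 and 69.7% of genes lower. NDUFS8, NDUFV1 and NDUFC2 are on chromosome 11, with a median of -0.36, and each was within 0.16 of its window. Other genes stood off from their neighbours: NDUFA8 at -1.02 in a window at -0.31, NDUFV3 at -0.80 in one at -0.18, NDUFS1 at 0.95 in one at 0.41, NDUFS7 at -0.52 in one at -0.11, and NDUFB2 at 0.26 in one at -0.36. The widest gap was that of NDUFC2-KCTD14, at 1.05 in a window at -0.40, a gene of low level that was not called. After centring on the window, NDUFA8 kept -0.71, NDUFV3 -0.62 and NDUFS1 0.54, while NDUFB8 and NDUFB9 changed sign, to -0.15 and 0.27. All 6 complex I genes of chromosome 19, whose median was -0.02, lay between -0.52 and 0.30, and NDUFS7 was the only one of them called.

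**Figure D4:**
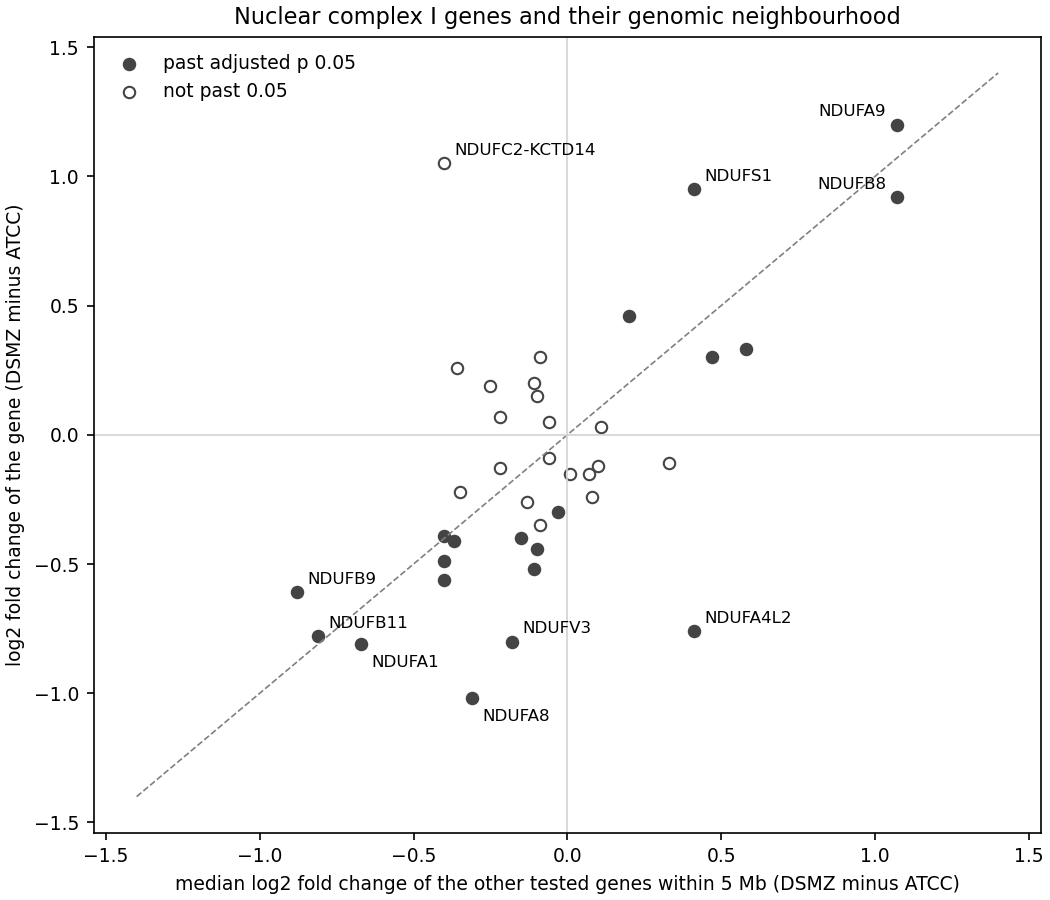
Log2 fold change of each of the 39 nuclear complex I genes (y axis) against the median of the other tested genes within 5 Mb on either side (x axis), both DSMZ minus ATCC; filled points passed an adjusted p of 0.05 and the dashed line marks equal values. NDUFA9, NDUFB8, NDUFA1, NDUFB11 and NDUFB9 lie near the line, whereas NDUFA8, NDUFV3, NDUFS1, NDUFA4L2 and the uncalled NDUFC2-KCTD14 lie off it.

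Promoters are shown for 4 called nuclear genes with large fold changes, chosen after their values were seen, because subunits of the complex are known to share regulators, NRF1 and the ETS factor GABPA among them. RefSeq (GRCh38.p14) gave the 250 bases before the start for 32 of the 39 nuclear genes. That start is the one RefSeq lists and can differ from the outer end of the gene in GENCODE. The NDUFV3 window lies inside the GENCODE span of its gene, and those of NDUFA9, NDUFS1 and NDUFA8 overlap the ends of theirs. Capitals mark matches, on either strand, to TGCGCA, the NRF1 half-site, CCGGAAG for GABPA and other ETS factors, ATGGCGGC for YY1 and GGGCGG for SP1. The first pair of genes below was higher in DSMZ and the other pair lower (NDUFA9 chr12:4648864-4649113 plus, NDUFS1 chr2:206159445-206159694 minus, NDUFA8 chr9:122159780-122160029 minus, NDUFV3 chr21:42893059-42893308 plus):
NDUFA9: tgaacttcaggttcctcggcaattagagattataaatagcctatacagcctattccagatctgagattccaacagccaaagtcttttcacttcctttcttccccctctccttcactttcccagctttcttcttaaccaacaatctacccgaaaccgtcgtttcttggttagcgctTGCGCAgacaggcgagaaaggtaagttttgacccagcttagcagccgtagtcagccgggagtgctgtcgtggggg
NDUFS1: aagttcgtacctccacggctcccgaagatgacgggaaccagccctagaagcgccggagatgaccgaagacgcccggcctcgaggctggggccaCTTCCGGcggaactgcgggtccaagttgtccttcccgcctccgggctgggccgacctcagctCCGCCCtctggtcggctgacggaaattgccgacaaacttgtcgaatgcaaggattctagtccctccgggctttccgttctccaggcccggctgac
NDUFA8: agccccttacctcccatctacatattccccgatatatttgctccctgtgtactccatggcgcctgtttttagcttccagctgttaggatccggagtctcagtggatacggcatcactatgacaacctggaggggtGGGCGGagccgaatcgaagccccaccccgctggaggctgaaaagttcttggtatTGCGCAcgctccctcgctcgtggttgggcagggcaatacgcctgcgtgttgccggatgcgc
NDUFV3: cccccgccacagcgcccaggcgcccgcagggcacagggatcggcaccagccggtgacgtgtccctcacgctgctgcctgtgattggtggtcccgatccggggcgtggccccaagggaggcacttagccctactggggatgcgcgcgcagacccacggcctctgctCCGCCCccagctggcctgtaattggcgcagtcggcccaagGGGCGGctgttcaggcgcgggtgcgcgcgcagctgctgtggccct
The NRF1 half-site was found in 9 of the 32 promoters (28.1%), beside 7.05% of 27305 promoters of the same length. Its spelling was chosen after longer forms had been searched, so these shares are not an unbiased comparison. The ETS motif was found in 5 of 32 (15.6%), beside 8.82% of all promoters. The YY1 motif was in 2 of 32 (6.25%), beside 1.34%, and the SP1 box in 21 of 32 (65.6%), beside 42.3%. Among genes called higher in DSMZ, 5 had a promoter entry, of which 1 held the NRF1 half-site and 1 the ETS motif. Among those called lower, 11 had an entry, of which 5 held the NRF1 half-site and 1 the ETS motif. A match is a run of letters in this window and not a measured binding site.

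Within genes, shares of the main transcript differed most between the stocks for NDUFB3, NDUFS5, NDUFA12 and NDUFB7, and in each of these 4 the libraries overlapped. NDUFB3-201 held 51.8 ± 17.4% of the TPM of its gene in DSMZ and 41.4 ± 9.64% in ATCC cells, and NDUFS5-202 held 55.1 ± 18.6% in DSMZ and 65.2 ± 18.4% in ATCC cells (SD, n = 3 each). NDUFA12-201 held 57.6 ± 5.2% in DSMZ and 48.3 ± 4.31% in ATCC cells, and NDUFB7-201 held 84.4 ± 14.7% in DSMZ and 93.6 ± 8.21% in ATCC cells (SD, n = 3 each). NDUFV3, the member with known splice isoforms, also overlapped between the stocks. Its short coding transcript NDUFV3-202 held 64.1 ± 8.14% in DSMZ and 64.8 ± 0.979% in ATCC cells, and the long one, NDUFV3-201, held 15.1 ± 0.785% in DSMZ and 14.5 ± 0.601% in ATCC cells (SD, n = 3 each). In NDUFA9 the main transcript was NDUFA9-205, a retained-intron form of 500 bases, at 40.3 ± 2.68% in DSMZ and 41.9 ± 3.47% in ATCC cells (SD, n = 3 each), so the TPM of this gene rests on short transcripts. With protein-coding transcripts alone its fold change was 1.24. Other members also had a main transcript not listed as coding. In NDUFA4 it was NDUFA4-204, a retained-intron form, at 54.5 ± 0.42% in DSMZ and 53.3 ± 0.446% in ATCC cells (SD, n = 3 each). Most of the rest was NDUFA4-203, also a retained-intron form, at 43.5 ± 0.202% in DSMZ and 44.7 ± 0.287% in ATCC cells (SD, n = 3 each). In NDUFA7 the main transcript was NDUFA7-203, a nonsense-mediated decay form, at 61.2 ± 5.11% in DSMZ and 62.4 ± 0.439% in ATCC cells (SD, n = 3 each). A retained-intron form, NDUFA7-205, held 30.9 ± 3.1% in DSMZ and 27.4 ± 3.44% in ATCC cells (SD, n = 3 each). Gene levels in TPM therefore include forms that are not coding.

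Assembly factors build the complex without staying in it, and were listed here together with NDUFAB1, the acyl carrier protein, which is also a subunit of the finished complex. Of these 22 genes, 3 were higher in DSMZ and 8 lower, where 24.1% of all tested genes were higher and 25.7% lower, with a median of -0.17, and on leaving out 1 library 1 to 5 were higher and 5 to 9 lower. NDUFAF5, a methyltransferase-like protein that modifies NDUFS7, averaged 32 ± 2.74 TPM in DSMZ and 12.1 ± 1.75 TPM in ATCC cells (SD, n = 3 each), a fold change of 1.49 (adjusted p = 6.72e-05). DMAC2 and ACAD9, which take part in building the membrane arm, rose by 0.39 (adjusted p = 0.0232) and 0.27 (adjusted p = 0.0497), calls lost without any 1 DSMZ library, ATCC replicate 1 or ATCC replicate 3 (adjusted p up to 0.137 for DMAC2 and 0.268 for ACAD9). TMEM70, which helps assemble complex I and the ATP synthase, averaged 32.7 ± 1.82 TPM in DSMZ and 87 ± 7.73 TPM in ATCC cells (SD, n = 3 each), with a fold change of -1.38 (adjusted p = 4.19e-05). DMAC1, a distal arm factor, fell by 1.03 (adjusted p = 0.00105) and NDUFAF6 by 0.99 (adjusted p = 0.000351). TMEM70 and NDUFAF6 lie on chromosome 8, as does NDUFB9.

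Of 29 genes that maintain mitochondrial DNA and handle its RNA, 10 were higher in DSMZ and 4 lower, beside 24.1% higher and 25.7% lower of all tested genes, with a median of 0.20, and on leaving out 1 library 8 to 13 were higher and 3 to 6 lower. FASTKD5, which processes mitochondrial RNA, averaged 22 ± 0.288 TPM in DSMZ and 9.64 ± 0.217 TPM in ATCC cells, TFAM, which packs mitochondrial DNA and starts its transcription, 71 ± 1.33 TPM in DSMZ and 31.4 ± 11.2 TPM in ATCC cells, and TWNK, the mitochondrial helicase, 17.8 ± 0.336 TPM in DSMZ and 9.32 ± 1.7 TPM in ATCC cells (SD, n = 3 each). Their fold changes were 1.22 (adjusted p = 5.61e-05), 1.20 (adjusted p = 0.00576) and 1.20 (adjusted p = 0.000141) in that order. TFAM stood at 19.1 TPM in ATCC replicate 2, below 41 and 34.1 TPM in the other ATCC libraries, and kept a fold change of 0.95 to 1.39 on leaving out 1 library. TFAM and TWNK are on chromosome 10. HSD17B10 of mitochondrial RNase P, on chromosome X, fell by 0.98 (adjusted p = 0.00103), TOP1MT, the mitochondrial topoisomerase, by 0.59 (adjusted p = 0.00561) and TFB2M, a transcription factor, by 0.49 (adjusted p = 0.00827).

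Among 8 regulators of mitochondrial biogenesis 4 were higher in DSMZ and 0 lower, beside 24.1% and 25.7% of all tested genes, with a median of 0.44. On leaving out 1 library 3 to 5 were higher, and 1 was lower without ATCC replicate 1. PPARGC1A, the coactivator PGC-1 alpha, had 2.41, 1.93 and 2.66 TPM in DSMZ and 0.0345, 0.0178 and 0.0358 TPM in ATCC libraries. It rested on 777 counts in DSMZ and 10 in ATCC libraries, a ratio of CPM of 71.2 with a 95% interval of 38.5 to 149 that covers counting error only, and passed the threshold (adjusted p = 9.27e-06). Its relatives PPRC1 and PPARGC1B rose by 0.92 (adjusted p = 0.00122) and 0.48 (adjusted p = 0.00953, and 0.0558 without DSMZ replicate 1). YY1, whose motif was searched in the promoters, rose by 0.42 (adjusted p = 0.00611). NRF1 and GABPA were among the 4 that did not pass. Of 18 genes of iron-sulfur cluster assembly, 2 were higher and 8 lower, beside the same shares of all tested genes, with a median of -0.16, and without DSMZ replicate 2 the lower count was 4. The mitochondrial iron importer SLC25A28 and LYRM4, partner of the sulfur donor enzyme, rose by 0.91 (adjusted p = 0.000313) and 0.79 (adjusted p = 0.000915). The other iron importer, SLC25A37, fell by 0.92 (adjusted p = 0.000205) and the cluster carrier NFU1 by 0.60 (adjusted p = 0.00211).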

How the data were processed

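Poly(A) RNA of 6 THP-1 cultures (3 DSMZ, 3 ATCC) was extracted with TRIzol and RNeasy columns and sequenced from stranded KAPA libraries, per the labels' protocols. The submitters' processing notes name bcl2fastq 2.20, Trimmomatic 0.35, kallisto 0.43.0 and the build GRCh38. The annotation release and the strand setting of the counting are not given in the sources used here. Each deposited table lists kallisto's estimated count (not normalized) and TPM value for every transcript, per the file headers. Of 179973 transcripts, 163714 were matched by identifier to GENCODE 29 on the primary assembly and 14222 by symbol, mostly copies on alternative sequences (2.42 to 2.85% of counts), and 2037 had no gene (0.181 to 0.199%) and were left out.

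Counts and TPM were summed per gene, and counts were rounded. Genes were tested with edgeR 4.0.16 in R 4.3.3 (filterByExpr, TMM, quasi-likelihood F test, source as the only term), with Benjamini-Hochberg adjustment over 14577 genes at 0.05. Standard errors were taken from the fold change and its F statistic. The biological coefficient of variation was 15.9%. Counts were also simulated for the 14577 genes of this comparison, of which 14414 passed the filter within the fit. On these the test recovered 17 of 67 true changes of 1.5-fold, 55 of 67 of 2-fold and 66 of 66 of 4-fold, and made 6 false calls. The simulation left 14377 genes unchanged, where 49.8% of tested genes were called in the data. It gave all genes the same variation and had no library that stood apart. Its recovery and false calls therefore do not measure those of the test on the data. Sums, windows and transcript shares are described without a test. The motif search used RefSeq promoters, and the spelling of the NRF1 motif was chosen after longer forms had been searched. Figures were drawn with matplotlib 3.10.9.

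The genes, gene lists and modules were chosen with earlier results of these data known. Values in every library are given for the MT-ND genes, the nuclear core subunits, NDUFA4, NDUFA4L2 and the 6 highest and 6 lowest called nuclear genes; other lists are given by up to 3 called genes each way. Some genes that this rule names are not reported here. Other genes given with values were chosen after their values were seen. Replicate numbers in the labels were not used to pair the libraries in the main fit. Deviations of same-numbered libraries correlated by 0.03, 0.14 and 0.21, and those of different-numbered libraries by -0.15 to 0.06. These values do not settle whether the numbers pair the libraries. Alternatives tried were other scalings, DESeq2 1.42.0, limma 3.58.1 on log2(TPM + 0.5) and log2(TPM + 0.1), other filters, coding transcripts alone, correction for GC content, a block for the replicate number, centring on the window or chromosome and leaving out each library. Primary assembly transcripts only and added pseudogene counts were chosen after seeing the data.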

Additional observations from a re-analysis of the deposited data

How the results depend on the processing

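Of the 21 called complex I genes, 10 were called under all 19 refits of the gene test: MT-ND6, NDUFA1, NDUFA8, NDUFA9, NDUFB8, NDUFB9, NDUFB11, NDUFC2, NDUFS1 and NDUFV3. Nuclear genes called higher were 6, and 3 to 10 on leaving out 1 library; those called lower were 14, 6 to 16 on leaving out 1 library and 9 with protein-coding transcripts only. Mitochondrial genes called higher were 1, and 1 to 2 on leaving out 1 library; those called lower were 0, and 0 to 1. With the GC correction 28 complex I genes were called, nuclear and mitochondrial together, and 26 with the GC correction and the block. In either of these settings 2 mitochondrial genes were higher and 1 was lower. A replicate block, which the main fit does not hold, left 5 nuclear genes higher and 11 lower. The median of all genes moved most with upper quartile scaling, to -0.07. The cause of these changes was not tested.

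Called genes changed sign only by centring, and the refits of the gene test changed the sign of uncalled ones. Centring on the 10 Mb window gave NDUFB3 -0.16, NDUFB5 -0.25, NDUFB11 0.03, NDUFB9 0.27, NDUFB8 -0.15 and NDUFV1 0.01; centring on the chromosome gave NDUFA1 0.01, NDUFB11 0.04, NDUFB9 0.25 and NDUFB8 -0.11. The GC correction gave NDUFB7 0.09, NDUFA5 -0.15, NDUFA4 -0.35 and MT-ND5 -0.01, and with the replicate block 0.08, -0.14, -0.26 and -0.01. Upper quartile scaling gave NDUFA2 -0.04, NDUFA4 -0.05 and MT-ND5 -0.07. limma at either pseudocount gave NDUFA4 -0.01 and MT-ND5 -0.02. MT-ND5 was -0.00 with a filter of 1 CPM and -0.01 on the primary assembly alone, and NDUFS3 was 0.09 with protein-coding transcripts. Over libraries left out in turn the ranges were -0.26 to 0.05 for NDUFB7, -0.03 to 0.37 for NDUFA5, -0.05 to 0.13 for NDUFA2, -0.06 to 0.09 for NDUFA4 and -0.05 to 0.06 for MT-ND5.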
